A study of Homo sapiens with 5 samples.

Results

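Transcripts through which ERK signalling is read out and restrained were measured in HEK293, a human embryonic kidney cell line, on Affymetrix HG-U133 Plus 2.0 arrays. The 35 genes were chosen by name, with earlier results of these data known. They fall into 14 ERK feedback genes (the DUSP, SPRY, SPRED and ETV families), 19 immediate early factors (the EGR, FOS, JUN, IER and KLF families with ATF3 and MAFF) and 2 further ERK targets, CCND1 and EPHA2. Of 19775 genes named on the array they made up 34, covered by 77 of 54675 probe sets, and 65 of these, for 30 genes, passed a filter on low signals (at least 100 on at least 2 arrays). EGR2 was not analysed here, since no probe set carried its symbol in the annotation used, and DUSP2, EGR3, FOS and FOSB had no probe set past the filter.

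HEK293-vector cells (n = 3 arrays) carried empty pcDNA4 stably, and HEK293-PRL-1 cells (n = 2 arrays) carried pcDNA4-PRL-1, and both grew in DMEM with fetal bovine serum, with no treatment named in the labels. The comparison asks which transcripts differ when PRL-1, a small protein tyrosine phosphatase encoded by PTP4A1, is stably expressed. The authors removed a further PRL-1 array whose sample, by qRT-PCR, had PRL-1 at the level of the controls, so the PRL-1 group was partly selected on that transcript. Effects of PRL-1 cannot be told apart from those of making and selecting stable cells, and the sources used here do not say whether the cells were clones or pools or which promoter drove the insert. The p-values therefore cover replicate samples of these cells only. In bulk RNA, a change in the share of cells that express a gene and a change in RNA per cell cannot be told apart.

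The brightest PTP4A1 probe set had vector signals of 7462.6, 7532.7 and 6807.2 (replicates 1, 2 and 3 in that order, here and below) against 7913.5 and 7239.5 on the arrays labelled PRL-1 (replicates 1 and 2). The groups overlapped, and the 4 tested probe sets gave log2 fold changes of 0.06 to 0.15 with none called. The sources used here do not say whether the insert holds the sequence that these probe sets detect, so their signals may not check the labels, and directions below refer to the arrays as labelled. Vector replicate 3 stood apart, with correlations of 0.938 to 0.947 with the other arrays against 0.954 to 0.964 among those, so the main results are given with and without it. Of 9 markers of HEK293 cells with a probe set, 8 reached a signal of 100 on all 5 arrays, and NEFM, a neurofilament subunit, reached it on none. PTPRC and CD14 of leukocytes, CDH5 and KDR of endothelium, and COL1A2 and PDGFRB of fibroblasts stayed under 100 on all arrays. Signals of 100 or more on all arrays were found for 3 of 7 fibroblast, 1 of 4 leukocyte and 1 of 4 endothelial markers. Summed signals of the fibroblast list were 1665.2 to 2103.6 in vector cells and 1428.5 to 1841.9 on the PRL-1 arrays, and those of the leukocyte list 284 to 403.7 and 244.9 to 288.8. The endothelial sums did not overlap, at 528.3 to 810.3 and 427.3 to 486.3. These sums include signals under 100, and whether any such cells were present or contributed to the results was not tested.

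ERK is the last kinase of a cascade that runs from growth factor receptors through RAS, RAF and MEK. Active ERK first switches on immediate early genes, which need no new protein synthesis and whose products (FOS, JUN and EGR proteins among others) are transcription factors with short-lived messages. Sustained signalling also raises genes that feed back on the pathway, namely DUSP phosphatases that remove phosphates from ERK and related kinases, SPRY and SPRED proteins that act upstream near RAS and RAF, and the PEA3 subfamily of ETS factors (ETV1, ETV4 and ETV5), which lie downstream of FGF receptors in many tissues.

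The log2 fold change was above 0 for 11 of 13 ERK feedback genes and for 8 of 15 immediate early factors, where 44.8% of genes tested were above 0. KLF10, a zinc finger repressor also known as an early target of TGF-beta, was the 1 member that passed the test with all 5 arrays, and it rose 1.79-fold on the arrays labelled PRL-1. Without vector replicate 3, ETV4 and DUSP5 passed as well. The median log2 fold change (PRL-1 minus vector) over the brightest tested probe set of each gene was 0.49 for 13 ERK feedback genes and 0.03 for 15 immediate early factors, where 14546 genes tested gave -0.03. With no filter on low signals the medians were 0.50 over 14 and -0.01 over 18. No set test was run, and nothing particular to either group follows from the medians.

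By limma, 1 of 30 members rose and 0 fell at an adjusted p of 0.05, where 0.0825% of genes tested were called higher and 0.165% lower. At an unadjusted p of 0.05, 10 of 30 members were higher and 0 lower, against 5.11% and 6.32% of genes tested. Both arrays labelled PRL-1 lay above all 3 vector arrays for 13 members, of which 8 were feedback genes, and below them for 1, JUNB (13.8% and 17.2% of genes tested). FOSL1 passed the filter through the PRL-1 arrays alone and so had to be higher, and over the other 29 members 9 were higher at an unadjusted p of 0.05, 12 had both PRL-1 arrays above all vector arrays and 20 had a log2 fold change above 0. Without vector replicate 3, 3 members were called higher and 0 lower, and 0.708% of genes tested were then called higher. The feedback median was 0.46 and the immediate early median 0.06 in that fit. Since the members were chosen with earlier results of these data known, these counts beside the shares of all genes are no independent comparison.

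**Figure D1:**
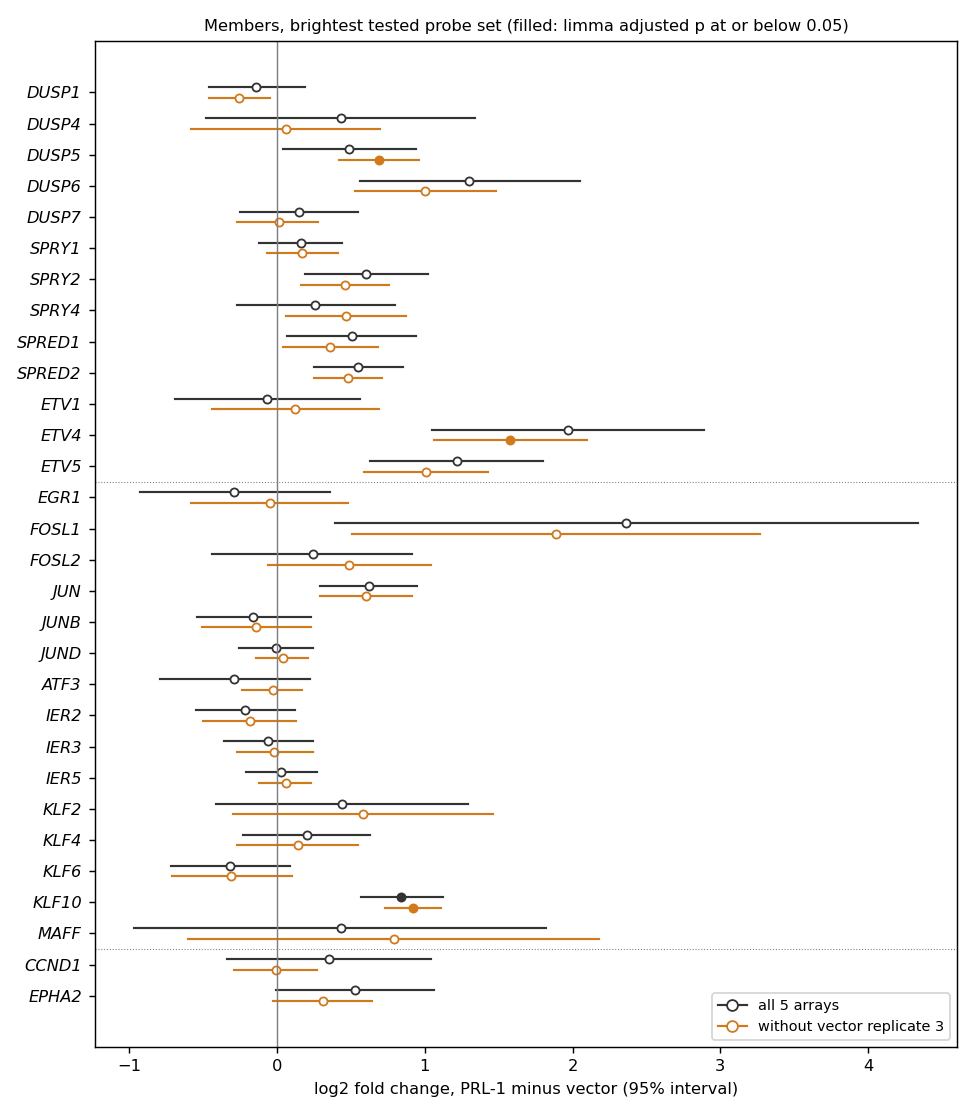
Log2 fold change (horizontal axis, PRL-1 minus vector) of the brightest tested probe set of each of 30 members, with 95% intervals, from all 5 arrays (dark) and without vector replicate 3 (orange), filled where limma's adjusted p was at or below 0.05. KLF10 is filled in both fits, ETV4 and DUSP5 only without vector replicate 3, and the intervals of ETV5, DUSP6, SPRY2, SPRED1, SPRED2, JUN and FOSL1 lie above 0 in both without a call.

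The PEA3 factors ETV4 and ETV5 had log2 fold changes above 1 through their brightest probe sets, without a call when all 5 arrays were used. The brighter ETV4 probe set gave 110.9, 129.8 and 52.9 in vector cells and 359.6 and 356.5 on the PRL-1 arrays. The PRL-1 arrays were nearly equal and well above all vector arrays, whose signals reach down to background, so the size is uncertain. The log2 fold change was 1.97 (95% interval 1.05 to 2.89, limma adjusted p = 0.193), and 1.58 (1.06 to 2.10, adjusted p = 0.0217) without vector replicate 3, the array with the lowest ETV4 signal. The second ETV4 probe set had all vector arrays under 100 (31.1 to 55.8) and was at least 1.83-fold higher on the PRL-1 arrays (adjusted p = 0.294).

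ETV5 gave 222.6, 195.3 and 135.6 in vector cells and 453.5 and 388 on the PRL-1 arrays through its brightest probe set. The groups did not overlap, and the log2 fold change of 1.22 (95% interval 0.63 to 1.80) did not pass the test (adjusted p = 0.201, and 0.0511 without vector replicate 3). Of 5 tested ETV5 probe sets, 4 had non-overlapping groups with higher PRL-1 signals, and the fifth gave -0.62 at signals of 42 to 130, mostly near background. The fifth passed the filter through vector arrays alone, which favours a lower value. One of the 4 had vector signals of 14.1 to 22.9 against 153.9 and 148.6, at least 1.51-fold higher. That probe set, like the dimmer ETV4 probe set, passed the filter through the PRL-1 arrays alone and so had to differ. ETV1, the remaining PEA3 factor, overlapped between the groups in all 5 of its tested probe sets, with log2 fold changes from -0.21 to 0.25.

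Among the DUSP phosphatases, DUSP6, which acts on ERK in the cytoplasm, had the largest difference upward. Its brighter probe set gave 194, 156.1 and 92.8 in vector cells and 344.9 and 352.2 on the PRL-1 arrays. Every PRL-1 signal exceeded every vector signal, and the log2 fold change was 1.30 (95% interval 0.56 to 2.05, adjusted p = 0.268), or 1.00 without vector replicate 3 (adjusted p = 0.0723). A second tested probe set of DUSP6 gave 1.44 (adjusted p = 0.288), again with groups that did not overlap. The remaining one was under 100 on all arrays, at 8.3 to 23.4 and 51.6 to 56.3.

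DUSP5, a nuclear phosphatase specific for ERK, gave 485.1, 514.1 and 745.8 in vector cells and 789.5 and 818 on the PRL-1 arrays. Here vector replicate 3 was the highest of the vector arrays and lay close to the PRL-1 arrays. The log2 fold change was 0.49 with all arrays (adjusted p = 0.472) and 0.69 without vector replicate 3 (95% interval 0.42 to 0.96), where DUSP5 was called (adjusted p = 0.0426). DUSP4, another nuclear member, ranged from 118.8 to 349.9 in vector cells against 282.6 and 257.5, and its log2 fold change was 0.43 with all arrays and 0.06 without vector replicate 3. The dimmer DUSP4 probe sets gave 0.48, with groups that did not overlap, and 0.40, with groups that did. Without vector replicate 3 they gave 0.15 and 0.02. DUSP7 gave 0.15 and overlapped between the groups, as did its dimmer probe set at -0.56 (95% interval -1.98 to 0.85). DUSP2 stayed at or under 25 on all arrays.

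The probe sets of DUSP1, a phosphatase that is itself an immediate early gene, disagreed. The brighter one gave 2806.8, 3101.4 and 2296.9 in vector cells, and 2371.5 and 2565.9 on the PRL-1 arrays fell within that range (log2 -0.14, adjusted p = 0.795). The other tested one gave 216, 198 and 287.6 against 58.3 and 61.9. That is at least 2.31-fold lower on the PRL-1 arrays, which were both under 100, with an adjusted p of 0.0933 (0.0788 without vector replicate 3). This probe set passed the filter through the vector arrays alone, which favours a lower signal on the PRL-1 arrays. A call for it was made only with estimated array weights (adjusted p = 0.0238), in which vector replicate 3 counted least. Which DUSP1 transcripts each probe set detects was not examined.

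SPRED2, an inhibitor of RAS to RAF signalling, had a small difference with little spread. It gave 819.9, 794.1 and 703 in vector cells and 1131.2 and 1124.1 on the PRL-1 arrays. The fold change was 1.46 (log2 0.55, 95% interval 0.25 to 0.85, adjusted p = 0.25), and the adjusted p was 0.0719 without vector replicate 3. SPRED1 gave 438.6, 406.5 and 312 against 577.3 and 511.1, which did not overlap (log2 0.51, adjusted p = 0.447). A dimmer SPRED1 probe set overlapped between the groups (log2 0.21, and 0.03 without vector replicate 3). Its dimmest passed the filter through the PRL-1 arrays alone and so had to be higher. SPRY2, which restrains receptor signalling, gave 565.3, 696.5 and 464.8 against 842.2 and 882 (log2 0.60, 95% interval 0.19 to 1.02, adjusted p = 0.342). All 5 SPRY and SPRED genes had a log2 fold change above 0 through their brightest probe set, from 0.16 for SPRY1 to 0.60 for SPRY2, and none was called. SPRY4 overlapped between the groups (246.8, 236.3 and 370.2 against 325.9 and 342.9, log2 0.26), with vector replicate 3 the highest array, and gave 0.47 without that array (adjusted p = 0.279). The groups also overlapped in the dimmer SPRY1 probe set (log2 -0.11).

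**Figure D2:**
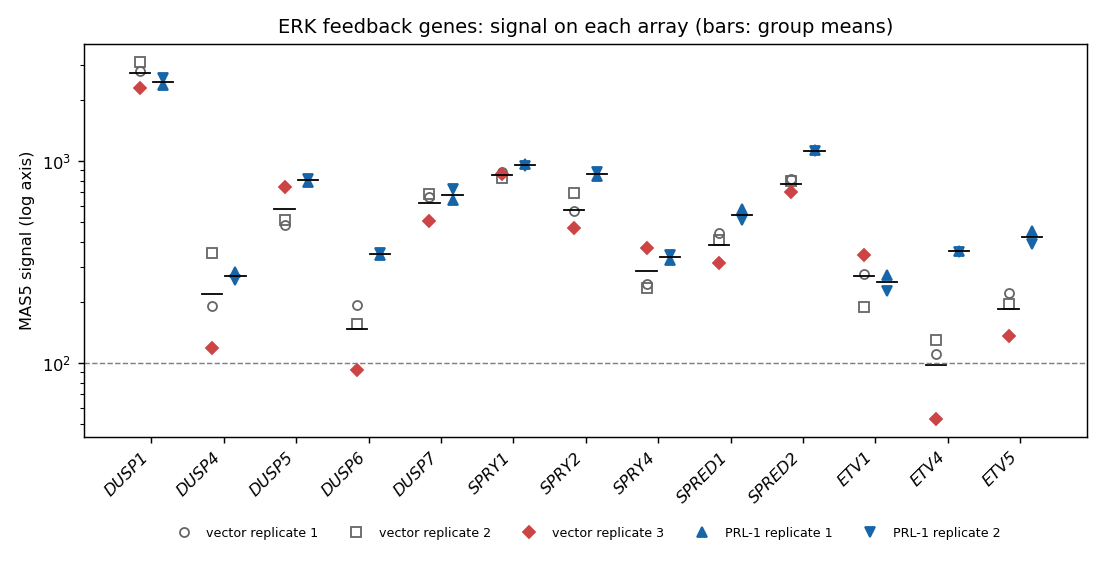
MAS5 signal (log axis) of the brightest tested probe set of 13 ERK feedback genes on vector replicates 1 and 2 (open symbols), vector replicate 3 (red) and the 2 PRL-1 arrays (blue), where bars mark group means and the dashed line a signal of 100. The PRL-1 arrays lie above all vector arrays for 8 genes, among them ETV4 (359.6 and 356.5) and DUSP6 (344.9 and 352.2), and vector replicate 3 is the lowest vector array for 9 of the 13.

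KLF10 gave 1674.4, 1742.7 and 1999.7 in vector cells and 3125.6 and 3337.7 on the PRL-1 arrays, through the 1 probe set that carried its symbol. The groups were far apart relative to their spread. The log2 fold change was 0.84 (95% interval 0.57 to 1.12, adjusted p = 0.045), and 0.92 without vector replicate 3 (adjusted p = 0.00235). Its call was lost without vector replicate 1 (adjusted p = 0.176), vector replicate 2 (0.197), PRL-1 replicate 1 (0.485) and PRL-1 replicate 2 (0.533), while the log2 fold change stayed between 0.79 and 0.92. The remaining KLF genes were not called. On the log2 scale, KLF2 gave 0.44 (adjusted p = 0.742) near background, KLF4 0.20 (adjusted p = 0.771, with -0.62 in its dimmer probe set), and KLF6 -0.32 (adjusted p = 0.608). The dimmer KLF4 probe set passed the filter through vector arrays alone, which favours a lower value. In 4 of 5 tested KLF6 probe sets the log2 fold change was below 0, and in 2 of those the groups did not overlap. The brighter of these 2 gave 1276.4, 1251 and 1140.7 against 977.8 and 913.7 (adjusted p = 0.398).

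JUN, a core subunit of AP-1, had higher signals on both PRL-1 arrays without a call. Its brightest probe set gave 6010.3, 7310.8 and 6329.4 in vector cells and 11422.9 and 8817.3 on the PRL-1 arrays. Both PRL-1 signals exceeded all vector signals although they differed from each other, and the log2 fold change was 0.62 (95% interval 0.29 to 0.95, adjusted p = 0.235). The remaining JUN probe sets gave 0.47, 0.77 and 0.23, and the groups were separate in 3 of 4. JUNB gave 348, 348.5 and 362.4 against 330.5 and 303.9, lower on both PRL-1 arrays (log2 -0.16, adjusted p = 0.804). JUND gave -0.01 with an interval of -0.26 to 0.24.

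FOSL1, whose protein ERK stabilises, was under 100 on all vector arrays at 44.4, 34.3 and 14.6, and at 119.2 and 175.8 on the PRL-1 arrays. This is at least 1.45-fold higher (adjusted p = 0.436), and FOSL1 passed the filter through the PRL-1 arrays alone. With FOSL1 set aside, the immediate early median was 0.01 over 14 genes. FOS itself gave 25.4 to 34.3 over all 5 arrays and FOSB 10.5 to 49.9, both under 100 throughout, so no fold is given. FOSL2 gave 0.24 with overlapping groups.

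None of EGR1, IER2, IER3, IER5 and ATF3 was called, and their groups overlapped. EGR1, a zinc finger activator, gave 214.3, 299.5 and 416.8 in vector cells and 267.6 and 224.5 on the PRL-1 arrays. The PRL-1 signals fell within the vector range, and all 3 tested EGR1 probe sets had log2 fold changes below 0, from -0.54 to -0.26 (adjusted p from 0.628 to 0.801). Vector replicate 3 was the highest array for all 3, and without it they gave -0.05, -0.10 and -0.34. IER2, IER3 and IER5, named as immediate early response genes, gave -0.22, -0.06 and 0.03, with intervals that reach at most 0.27. The intervals were -0.55 to 0.12 for IER2, -0.36 to 0.24 for IER3 and -0.21 to 0.27 for IER5. ATF3, a factor of the stress response, gave 1694.3, 1795.9 and 2956.9 against 1755.2 and 1656.6 (log2 -0.29, adjusted p = 0.713). Its vector mean was set by vector replicate 3, and without that array the log2 fold change was -0.03. A second ATF3 probe set gave 0.07, and 0.42 without that array (adjusted p = 0.152). MAFF varied widely within both groups, from 57.7 to 245.2 and from 145 to 276.6.

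**Figure D3:**
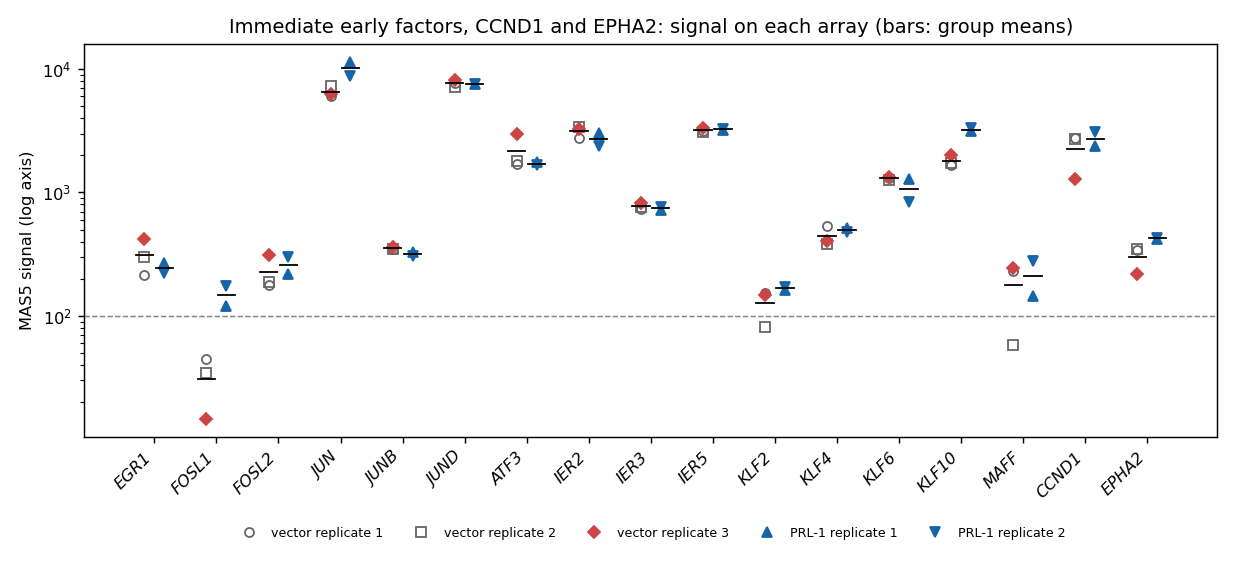
MAS5 signal (log axis) of the brightest tested probe set of 15 immediate early factors, CCND1 and EPHA2 on each of the 3 vector arrays (open symbols and red) and the 2 PRL-1 arrays (blue), where bars mark group means and the dashed line a signal of 100. KLF10 and JUN separate between the groups at high signal and FOSL1 separates near background, whereas EGR1, JUND, IER2, IER3, IER5 and ATF3 overlap.

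CCND1, the cyclin through which ERK drives entry into the cell cycle, gave 2755, 2691.6 and 1284.2 in vector cells and 2363.1 and 3088 on the PRL-1 arrays. Its log2 fold change of 0.35 (adjusted p = 0.748) was -0.01 without vector replicate 3, whose signal was under that of every other array. EPHA2, an ephrin receptor induced by RAS signalling, gave 341.4, 348.7 and 217.7 against 423.3 and 430.2 (log2 0.53, adjusted p = 0.519). Both of its PRL-1 signals exceeded the vector signals, and the log2 fold change was 0.31 without vector replicate 3.

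On vector replicate 3, ERK feedback genes mostly lay below the other vector arrays, and immediate early factors mostly lay slightly above them. Its feedback signals were mostly low, being the lowest of the vector arrays for 9 of 13 feedback genes (35.7% of genes tested), with a median log2 ratio to the mean of vector replicates 1 and 2 of -0.43. For immediate early factors it was the highest vector array for 10 of 15 genes (47.1% of genes tested). Their median ratio was 0.14 on the log2 scale, with 12 of 15 above 0. Over all 14546 genes that median was 0.06, with 56.2% above 0, and no difference between the groups of members was tested. These counts were made after the values were seen.

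The same array had raised signals for most genes of a stress response list, among them ATF4 and genes that it controls. CHAC1, a glutathione-degrading enzyme, had a signal of 1396.5 on that array, of 174.9 and 167 on the other vector arrays, and of 225.8 and 285.5 on the PRL-1 arrays. ASNS, asparagine synthetase, gave 5895.2, 6140.6 and 20597.9 on the vector arrays and 6195.6 and 6308.6 on the PRL-1 arrays. Both were thus far higher on vector replicate 3 than on any other array, by 8.17-fold and 3.42-fold over the mean of vector replicates 1 and 2. Of 11 measured genes of the stress list, 9 were above that mean on vector replicate 3, including TRIB3 (2.61-fold), DDIT3 (2.37-fold), SESN2 (2.15-fold) and ATF4 (1.61-fold), and HSPA5 (0.69-fold) and DNAJB1 (0.61-fold) were below it. ATF3, an immediate early member and itself a target of ATF4, was at 1.69-fold. Part of the difference in DUSP4, CCND1 and EPHA2 between the groups went with this array, as their values without it show. Log2 fold changes also shrank without it for ETV4 (1.97 to 1.58), ETV5 (1.22 to 1.01) and DUSP6 (1.30 to 1.00). The same held for SPRY2, SPRED1 and SPRED2, whereas those of DUSP5, SPRY4 and KLF10 grew. What the stress genes have to do with the ERK genes on that array was not tested.

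**Figure D4:**
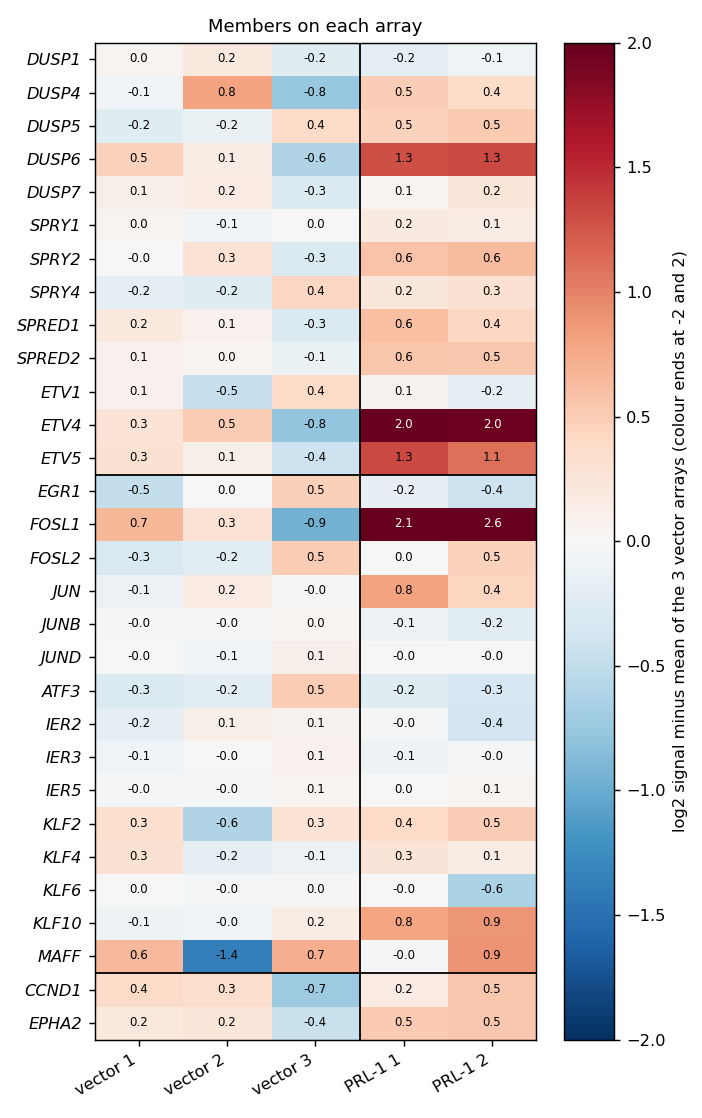
Log2 signal minus the mean of the 3 vector arrays (colour and number) for the brightest tested probe set of 30 members (rows) on each of the 5 arrays (columns), with lines between feedback genes, immediate early factors and the other 2 targets. Vector 3 is blue for DUSP4, DUSP6, ETV4, ETV5, FOSL1, CCND1 and EPHA2 and red for DUSP5, EGR1, FOSL2 and ATF3, and both PRL-1 columns are red for ETV4, ETV5, DUSP6, FOSL1 and KLF10.

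Where a gene had several probe sets, their agreement was examined. Of 18 members with 2 or more tested probe sets, 8 had all of them above 0, as did 24.1% of the 7061 genes with 2 or more. Over all 65 tested member probe sets, 17 were higher and 2 lower at an unadjusted p of 0.05, against 4.39% and 5.33% of probe sets tested. The 2 lower ones belonged to DUSP1 and KLF6. By limma's adjusted p, 1 of the 65 was called higher and 0 lower (0.0591% and 0.133% of probe sets tested), and 43 were above 0 (44.9% of probe sets tested). Of the 65, 4 passed the filter through the PRL-1 arrays alone and so had to lie above 0. They belong to ETV4, ETV5, SPRED1 and FOSL1. Those of ETV4 and SPRED1 are among the probe sets of the 8 genes, and those of ETV4, ETV5 and FOSL1 are among the 17. The dimmer tested probe sets of DUSP1 and KLF4, and the ETV5 probe set below 0, passed the filter through vector arrays alone, which favours values below 0. That of DUSP1 is among the 2 lower ones. No count was made without any of these probe sets.

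**Figure D5:**
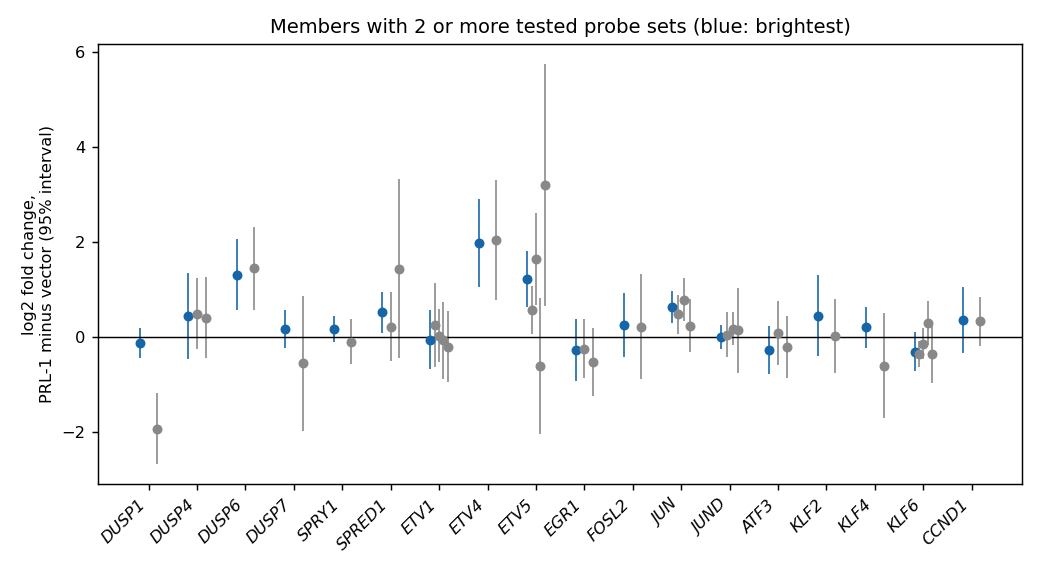
Log2 fold change (PRL-1 minus vector) with 95% interval of each tested probe set of the 18 members that have 2 or more, the brightest in blue. The probe sets of DUSP6, ETV4 and JUN lie above 0 together, those of EGR1 below 0, and those of DUSP1 disagree at -0.14 and -1.94.

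The upstream parts of the pathway were compared through lists of other genes. Ligands and receptors (16 of 20 genes measured) gave a median of -0.11, and the adaptors, RAS proteins and kinases of the cascade (19 of 27) gave 0.03. No gene of either list was called with all 5 arrays. FGF9, a fibroblast growth factor, gave 1054.3, 983.4 and 843.3 in vector cells and 1445.6 and 1556.1 on the PRL-1 arrays. It was higher on both PRL-1 arrays (log2 0.65, 95% interval 0.34 to 0.96, adjusted p = 0.201), and was called without vector replicate 3 (log2 0.56, adjusted p = 0.0458), but not when the filter was then set on the other 4 arrays (adjusted p = 0.0523). Its second probe set gave 0.64 (adjusted p = 0.384). TGFA, a ligand of EGFR, gave -0.74 (adjusted p = 0.301), with -0.08 in its second tested probe set, and MET, the HGF receptor, gave 0.41 (adjusted p = 0.358). In the cascade, MAPK3, which encodes ERK1, gave 0.43 (adjusted p = 0.476) and HRAS gave 0.52 (adjusted p = 0.478).

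Of 10 nuclear factors that ERK acts on, all measured, 8 had a log2 fold change above 0 (median 0.18) and none was called. Of all genes tested, 44.8% were above 0. Without vector replicate 3, 7 of the factors were above 0, with a median of 0.06. With all arrays and the probe sets of a gene averaged, the median was 0.05. ELK1, a partner of SRF that ERK phosphorylates, gave 1002.3, 1001.6 and 1046.3 against 1396.9 and 1390.5. The groups did not overlap (log2 0.46, 95% interval 0.19 to 0.72, adjusted p = 0.271, and 0.0618 without vector replicate 3). A second ELK1 probe set of like brightness overlapped between the groups and gave -0.12 (adjusted p = 0.805). Further feedback genes and targets (14 of 16 measured, among them DUSP8, DUSP10, DUSP14, DUSP16, IL17RD and PHLDA1) gave a median of -0.06 with 5 above 0, below the 0.49 of the feedback members. DUSP16, which acts on JNK and p38, gave 0.53 (adjusted p = 0.374), and PHLDA1 gave -0.66 (adjusted p = 0.54), while its 3 dimmer tested probe sets gave 0.30 to 0.43.

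Other immediate early and serum-induced genes (30 of 32 measured) gave a median of 0.01, and none was called with all 5 arrays. CCN2, a secreted matricellular protein induced by serum, TGF-beta and YAP, gave 425.7, 352.9 and 244.3 in vector cells and 133.1 and 101 on the PRL-1 arrays. It was lower on both PRL-1 arrays (log2 -1.52, 95% interval -2.18 to -0.86, adjusted p = 0.152) and was called without vector replicate 3 (log2 -1.74, adjusted p = 0.0197). RHOB, a serum-induced small GTPase, gave -0.41 (adjusted p = 0.412) and was called without vector replicate 3 as well (log2 -0.54, adjusted p = 0.0242). ARC, an activity-dependent gene of neurons, was under 10 on all vector arrays and at 237.4 and 116.8 on the PRL-1 arrays, at least 1.67-fold higher (adjusted p = 0.49), and it passed the filter through the PRL-1 arrays alone and so had to differ.

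Early targets of TGF-beta, a list that bears on KLF10, gave a median of -0.02 over 13 of 15 genes, with 0 called in the fit of all arrays. SRF targets of the actin cytoskeleton gave -0.18 over 11 of 14. The stress list gave -0.44 with 2 of 11 above 0, and 0.04 with 6 of 11 above 0 without vector replicate 3. Over the 117 measured genes of these 8 lists together, 12 were higher and 8 lower at an unadjusted p of 0.05, where 5.11% and 6.32% of genes tested were. CCN2, ID1 and some others stand in more than 1 list.

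Sequence upstream of the members was read for motifs of factors that lie downstream of ERK. RefSeq windows (GRCh38.p14) were read for 26 of 35 members, in 39 windows of 250 bases up to the start site. None was read for DUSP4, DUSP5, ETV4, ETV5, EGR3, FOSL1, IER3, KLF10 and CCND1. Any member window on the chromosome that carries KLF10 was skipped, whereas the windows of all genes were not limited in this way. Shown are 4 genes with higher PRL-1 signals (DUSP6, SPRED2, SPRED1 and JUN) and 2 immediate early genes without them (EGR1 and JUNB), 5′ to 3′ on the strand of the gene, with every motif match in capitals.
DUSP6 (chr12:89352502-89352751, minus strand): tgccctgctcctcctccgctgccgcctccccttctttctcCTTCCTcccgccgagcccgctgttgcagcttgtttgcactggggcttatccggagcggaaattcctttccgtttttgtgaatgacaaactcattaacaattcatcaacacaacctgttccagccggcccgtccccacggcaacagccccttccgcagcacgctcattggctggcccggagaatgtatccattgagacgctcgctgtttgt
SPRED2 (chr2:65432600-65432849, minus strand): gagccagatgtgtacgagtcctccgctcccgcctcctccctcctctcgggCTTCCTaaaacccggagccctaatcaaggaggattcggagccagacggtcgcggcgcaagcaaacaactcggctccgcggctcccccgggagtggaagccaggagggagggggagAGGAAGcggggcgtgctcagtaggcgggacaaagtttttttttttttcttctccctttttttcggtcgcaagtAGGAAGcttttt
SPRED1 (chr15:38252586-38252835, plus strand): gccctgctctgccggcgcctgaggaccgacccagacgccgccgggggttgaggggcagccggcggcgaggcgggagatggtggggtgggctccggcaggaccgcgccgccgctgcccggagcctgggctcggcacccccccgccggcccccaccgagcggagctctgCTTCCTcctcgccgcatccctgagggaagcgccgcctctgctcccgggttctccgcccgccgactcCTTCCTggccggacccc
JUN (chr1:58784048-58784297, minus strand): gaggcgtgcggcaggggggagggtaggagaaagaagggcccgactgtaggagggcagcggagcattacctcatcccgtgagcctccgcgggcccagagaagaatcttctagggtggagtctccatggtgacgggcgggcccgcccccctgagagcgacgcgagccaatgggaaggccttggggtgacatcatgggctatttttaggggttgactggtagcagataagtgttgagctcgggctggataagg
EGR1 (chr5:138465229-138465478, plus strand): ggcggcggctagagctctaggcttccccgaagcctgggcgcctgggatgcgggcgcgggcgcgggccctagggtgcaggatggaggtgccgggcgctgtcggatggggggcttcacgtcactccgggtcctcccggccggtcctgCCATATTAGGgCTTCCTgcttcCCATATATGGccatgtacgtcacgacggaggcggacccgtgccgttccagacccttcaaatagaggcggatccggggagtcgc
JUNB (chr19:12791236-12791485, plus strand): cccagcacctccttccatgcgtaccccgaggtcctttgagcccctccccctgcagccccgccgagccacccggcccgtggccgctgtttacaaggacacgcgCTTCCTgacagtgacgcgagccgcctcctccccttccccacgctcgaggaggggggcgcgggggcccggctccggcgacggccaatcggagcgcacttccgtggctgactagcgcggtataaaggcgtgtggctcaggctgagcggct
The motifs searched on both strands were AGGAAG (read by PEA3 and other ETS factors), CCGGAA (ETS), TGANTCA (AP-1), TGACGTCA (CRE), GCGGGGGCG (EGR) and the CArG box of SRF, and AGGAAG appears as CTTCCT where it lies on the other strand.

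AGGAAG was found in 7 of 10 feedback genes and 5 of 15 immediate early factors with a window, where 28.7% of all 35116 windows held it. Of the windows shown, SPRED2 had it 3 times and SPRED1 2 times, DUSP6, EGR1 and JUNB had it once, and JUN held none of the 6 motifs. The CArG box was found in 0 of 10 feedback genes and in 2 of 15 immediate early factors, EGR1 (2 matches) and EGR2, against 1.16% of all windows. CRE was found in 1 feedback gene, DUSP1, and in 2 immediate early factors (1.65% of all windows), CCGGAA in 3 and 3 (14.5%), GCGGGGGCG in 3 and 2 (4.72%), and TGANTCA in none (6.57%). Some genes have several windows, up to 6 for ETV1, which raises their chance of a match, and these matches are letters in a window and no measure of binding.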

How the data were processed

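Values were intensity data that the authors had computed with MAS5 (Bioconductor's affy, default settings) and left unlogged, and every array had a trimmed mean of 500. MAS5 subtracts mismatch probes, so dim signals are noisy. In folds given as "at least", signals under 100 in the dim group were set to 100. Log2 fold changes, intervals, p-values, medians and figures used the signals as measured, also those under 100. Depth in reads does not apply, and the small number of arrays limits precision. Control probe sets (62) were left out, and 33818 probe sets reached 100 on at least 2 arrays. Symbols came from the platform annotation, updated through gene identifiers to the RefSeq gene table, and probe sets with several symbols were not named. No array coordinates are given.

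Log2 signals were fitted with limma 3.58.1 in R 4.3.3 (eBayes with trend, group only, two-sided), with Benjamini-Hochberg adjustment over all tested probe sets and a call at 0.05. Replicates were grouped by title. Each gene was represented by its brightest tested probe set (mean log2 signal over arrays), and others were named where they disagreed. By rule, per-array values were given for members called with or without vector replicate 3, and for those with non-overlapping groups and an absolute log2 fold change of at least 0.5. In other lists, genes called in either fit and up to 4 with the smallest p could be named. ARC, MAFF, EGR1, ATF3, CCND1, JUNB and the stress genes were given values outside that rule, after these were seen. The same holds for SPRY4, DUSP4, the brighter DUSP1 probe set and a KLF6 probe set. Fits without an array kept the same probe sets. In 10 simulated data sets of 33818 probe sets, the fit recovered 0.4% of log2 changes of 0.5, 24.6% of log2 changes of 1 and 60.8% of changes of 2. Alternatives covered filter, offset, normalization, trend, array weights, block, each array left out and the methods' t-test. Members, lists and motifs were chosen with earlier results of these data known.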

Additional observations from a re-analysis of the deposited data

How the results depend on the processing

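KLF10 was the called member with the filter at 200, the log offset of 32 and median centring (adjusted p from 0.0395 to 0.0477). The count of members called higher, by gene and by probe set, was 0 with no filter, after quantile normalization, without the trend and by the methods' t-test (adjusted p of KLF10 0.084, 0.0975, 0.366 and 0.351), and 0 for genes without _x_at and _s_at probe sets, which drops the KLF10 probe set. It was 3 with array weights (KLF10, ETV4 and ETV5, with 1 DUSP1 probe set lower), where 0.577% of genes tested were called higher, and from 0 to 3 when single arrays were left out. With vector replicate 3 left out and the filter set on the other 4 arrays, an alternative added after the data were seen, it was 3, where 0.598% of genes were called higher. The t-test was run on the 33818 probe sets tested here and not on the set that the methods kept by MAS5 presence calls, so its counts are not those of the methods' analysis. It made 0 calls at 0.05 and at the methods' own threshold, and at an unadjusted p of 0.05 it gave 8 members higher and 0 lower, where 4.15% and 5.81% of genes were.

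With the replicate block the count was 2 (KLF10, adjusted p = 0.00153, and DUSP5, 0.036), where 0.928% of genes were called higher. The block removes vector replicate 3 in effect, since no PRL-1 array shares its number. Deviations of same-numbered arrays correlated at 0.064 and -0.059. With 2 PRL-1 arrays the deviations from their mean are exact opposites, so these values cannot settle whether the numbers pair the arrays.

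Among the other pathway genes together, 1 was called higher and 1 lower with array weights, 2 and 2 with the block, 0 and 2 with the filter set on 4 arrays, and 0 to 1 and 0 to 2 when single arrays were left out. The median of all members, 0.31, was 0.25 with no filter, when signals of 200 were required, when probe sets of a gene were averaged and without _x_at and _s_at probe sets, 0.28 with the log offset and with array weights, 0.35 after median centring, 0.24 with the block and with the filter set on 4 arrays, and 0.14 to 0.39 when single arrays were left out. The feedback median lay between 0.40 and 0.55 in every alternative run, and the immediate early median, 0.03, between -0.06 and 0.07 (-0.06 to 0.06 when single arrays were left out). The median of the other pathway genes, -0.01, was 0.04 after median centring, 0.03 with the block and with the filter set on 4 arrays, and -0.03 to 0.03 when single arrays were left out. Fits with a single PRL-1 array take their spread from the vector arrays.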
